A study of Bos taurus with 18 samples.

Results

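Fibronectin, tenascin-C, periostin, the fibrillins, elastin and the fibulins make up the glycoprotein and elastic part of the connective tissue matrix. The 10 genes FN1, TNC, POSTN, FBN1, FBN2, ELN, FBLN1, FBLN2, FBLN5 and EFEMP1 were listed by symbol and all 10 had a row among the 16989 gene symbols of the count files. Their mRNA was followed in bovine mesenchymal stem cells (MSCs) isolated from juvenile bone marrow, all from the same donor, in 17 clonal populations, each expanded from a single cell and named A to Q, and in 1 heterogeneous population that was not cloned. Every population was grown on plastic in DMEM with serum and antibiotics, without differentiation treatment, and was sequenced once. The spread reported is thus that between clones of one donor, and there is no replicate error for a clone or for the heterogeneous library. The clones were at passage 1. The passage of the heterogeneous population is not stated, so a difference in passage cannot be told apart from cloning. Matrix deposition by these clones was not analysed here.

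In tissue, fibronectin secreted as a soluble dimer is stretched by cells into fibrils through integrin receptors, and these fibrils are the scaffold on which other matrix proteins are laid down. Fibrillins polymerise into microfibrils, on which tropoelastin, the product of ELN, is deposited and cross-linked into elastic fibres. Fibulins bind tropoelastin, fibrillin or fibronectin and help to join these networks, while tenascin-C and periostin are matricellular proteins that modulate cell adhesion in developing and healing tissue. Stromal cells in culture make much of this matrix.

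Between 11484812 and 18458157 reads fell on genes in a clonal library, and 16092501 did so in the heterogeneous one. Levels are CPM (reads scaled to a common library total) after TMM scaling, which corrects for a few abundant genes taking a varying share of the reads, and logarithms are log2(CPM + 0.25). CPM was not divided by transcript length, so levels are compared between libraries and never between genes. The stromal genes THY1, ENG, NT5E, CD44, PDGFRA, PDGFRB, COL1A1, COL1A2 and COL3A1 were found in all libraries, whereas VCAM1 did not exceed 3.0 CPM in a clone. The summed level of the 10 stromal markers ran from 35278 CPM in clone N to 200074 CPM in clone M (median 95122). This sum mainly follows the collagen genes COL1A1, COL1A2 and COL3A1, with clone medians of 56169, 43552 and 7474 CPM. The other listed markers had clone medians of at most 350.8 CPM (NT5E). Clones C and O were closer to each other than any other pair, but still differed by more than counting noise (chi-square per degree of freedom 5.03 over 10510 genes, where 1 is counting noise, against 22.9 in the next closest pair), and both were kept. Clone N stood apart from the other clones, with 86 genes (0.731%) past an adjusted p of 0.05 in edgeR's quasi-likelihood test. Clone M had 4 such genes (0.034%) and no other clone had any. Clone N also had the highest share of reads outside genes, 26.81% against 24.83% in clone L, the next, and the part of this in its values was not tested.

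**Figure D1:**
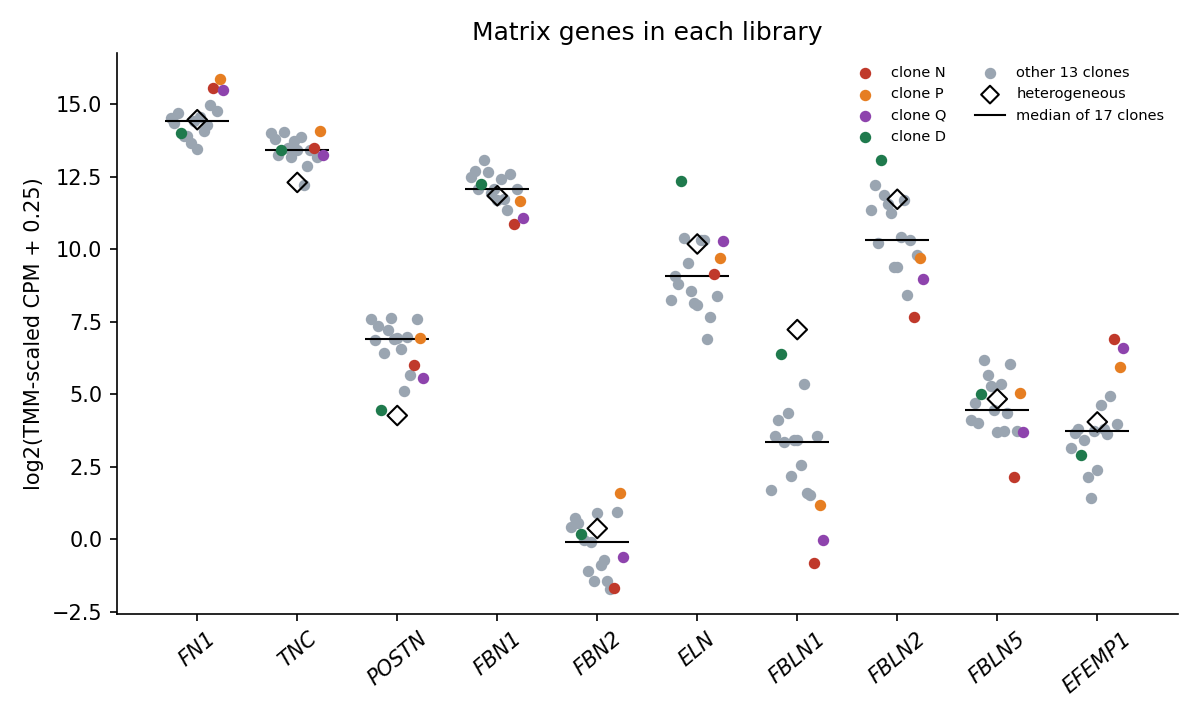
Level of each gene as log2(TMM-scaled CPM + 0.25) in 17 clones (points) and the heterogeneous population (open diamond), with the clone median as a line. Heights of different genes are not comparable, since CPM was not divided by length; clones N, P and Q lie at the top for FN1 and EFEMP1, and clone D lies at the top for ELN, FBLN1 and FBLN2.

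These genes took a large and uneven share of the reads on genes, a share that was not corrected for transcript length. Together they held from 2.82% of all reads on genes in clone I to 8.49% in clone P, with 7.11% in clone N, 6.21% in clone Q and 3.40% in the heterogeneous population. FN1 alone took between 1.18% of the reads in clone I and 6.18% in clone P, and TNC between 0.481% in clone K and 1.78% in clone P.

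FN1, which encodes fibronectin, had its lowest level in clone I at 11081 CPM, a median of 21948 CPM and its highest level in clone P at 60228 CPM. Clones P, N (48098 CPM) and Q (46305 CPM) were separated from the remaining 14, of which the highest was clone M at 32313 CPM. The SD of FN1 across clones was 0.68 log2 units (n = 17). TNC, encoding tenascin-C, which binds fibronectin and weakens cell adhesion to it, was the most even of the 10 genes with an SD of 0.47 log2 units (n = 17). It ranged from 4779 CPM in clone K through a median of 11046 CPM to 17376 CPM in clone P, and clone K lay well below the next clone, L, at 7410 CPM. POSTN, encoding periostin, a secreted fasciclin protein that binds collagen and tenascin-C, ranged from 21.8 CPM in clone D through a median of 119 CPM to 197 CPM in clone G (SD 0.92 log2 units, n = 17). Clones D and K (34.4 CPM) formed the low end, while the upper end was crowded, with clones A, O and G between 193 and 197 CPM.

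Of the fibrillins, the main subunits of microfibrils, FBN1 had 29329 to 118159 reads in a clone, enough for a small counting error, and FBN2 had 1 to 49. FBN1 ran from 1873 CPM in clone N through a median of 4325 CPM to 8586 CPM in clone E, with an SD of 0.60 log2 units (n = 17), and clone Q (2149 CPM) was the second lowest. The clones highest in fibronectin, N, P (3206 CPM) and Q, were thus all below the FBN1 median. FBN2, the fibrillin best known from embryonic tissue, ran from 0.0608 CPM in clone M to 2.76 CPM in clone P with a median of 0.696 CPM. Its SD of 1.03 log2 units (n = 17) includes a large counting error, which at its median read number amounts to 0.46 log2 units, so single clones cannot be ranked for FBN2.

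Elastin and the fibulins each had a larger SD across clones than fibronectin. ELN ran from 119.5 CPM in clone L through a median of 534 CPM to 5262 CPM in clone D (SD 1.31 log2 units, n = 17). Clone D was alone at the top, and the next clones, E (1339 CPM), K (1271 CPM) and J (1269 CPM), lay close together. FBLN1, encoding fibulin-1, a partner of fibronectin and elastin, had the widest range of the 10 genes, from 0.319 CPM (5 reads) in clone N to 83.5 CPM (938 reads) in clone D around a median of 9.96 CPM (SD 1.84 log2 units, n = 17). Clone Q, at 0.733 CPM, and clone P, at 2.02 CPM, were next to clone N at the low end. FBLN2, encoding fibulin-2, which joins fibrillin microfibrils and fibronectin, ran from 202 CPM in clone N through a median of 1288 CPM to 8530 CPM in clone D, a 42.2-fold range (SD 1.45 log2 units, n = 17). FBLN5, encoding fibulin-5, which carries tropoelastin to microfibrils, ran from 4.15 CPM in clone N through a median of 21.7 CPM to 73.0 CPM in clone E (SD 1.03 log2 units, n = 17). Clone N was therefore the lowest of the 17 for FBLN1, FBLN2, FBLN5 and FBN1.

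EFEMP1, encoding fibulin-3, went the other way. It was lowest in clone G at 2.44 CPM, had a median of 13 CPM, and was highest in clones N (121 CPM), Q (95.2 CPM) and P (60.5 CPM), the same clones that were highest in fibronectin. The next clone was M at 30.1 CPM. Its SD was 1.49 log2 units (n = 17).

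Of the 10 genes, 6 (FBN2, ELN, FBLN1, FBLN2, FBLN5 and EFEMP1) had an SD over 1 log2 unit across clones, whereas 6.64% of the 11450 genes that exceeded 1 CPM in some clone did so and their median SD was 0.32. The SD of FBLN1 was larger than that of 99.6% of these genes, EFEMP1 reached 98.8%, FBLN2 98.6% and ELN 97.5%, whereas TNC reached 69.9% and FBN1 79.3%. With a pseudocount of 1 in place of 0.25 the SD of FBN2 was 0.55 and that of FBLN5 0.98, and without clone N they were 0.99 and 0.84, so 4 genes exceeded 1 in either case.

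**Figure D2:**
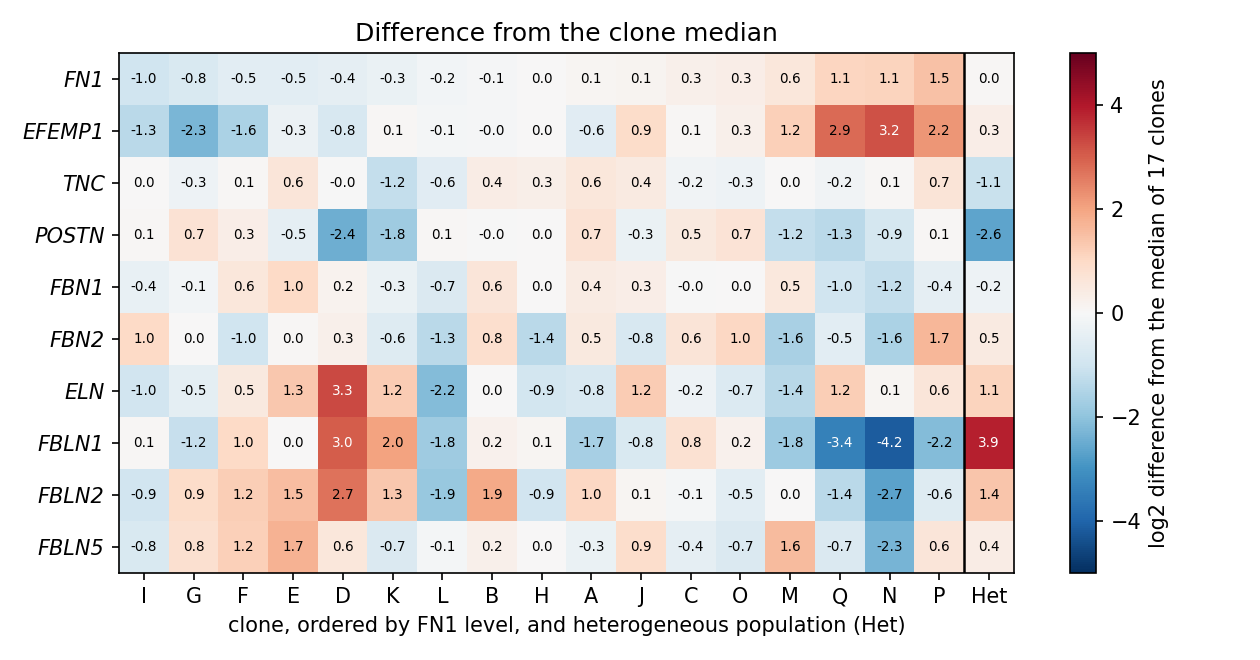
Log2 difference of each library from the median of the 17 clones, with clones ordered from the lowest to the highest FN1 level and the heterogeneous population (Het) at the right. EFEMP1 rises towards the right with FN1, up to 121 CPM in clone N, where FBLN1 has its lowest level (0.319 CPM), and ELN, FBLN1 and FBLN2 peak in clone D.

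Each clone was next compared with the other 16 to ask whether its matrix genes lay outside the spread of the rest. edgeR's quasi-likelihood test, fitted to 11761 genes per clone, called 0 of the 170 tests of a matrix gene in a clone at an adjusted p under 0.05, where over all genes 0.045% of tests were called (0.04% higher and 0.005% lower). Without adjustment 9 of these tests (5.29%) had a p under 0.05, against 4.4% over all genes, a share near the background. DESeq2's Wald test called 2, FBLN1 (adjusted p = 0.0469) and FBLN5 (adjusted p = 0.0268), both lower in clone N, for which edgeR gave adjusted p = 0.327 and 0.208. Over all genes DESeq2 called 0.193% of tests.

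Of the 9 tests with an unadjusted p under 0.05, clone D held 4. In clone D the ELN level was 8.32-fold that of the other clones (log2 3.06, standard error 0.70) and the FBLN1 level 8.74-fold (log2 3.13, standard error 1.05), FBLN2 was 4.94-fold (log2 2.31, standard error 0.92) and POSTN was 0.187-fold (log2 -2.42, standard error 0.87). The edgeR adjusted p of these 4 genes lay between 0.945 and 0.953. Clone N held 3 of them, namely EFEMP1 at 6.0-fold (log2 2.59, standard error 1.0), FBLN5 at 0.142-fold (log2 -2.82, standard error 1.08) and FBN1 at 0.408-fold (log2 -1.29, standard error 0.58), with edgeR adjusted p of 0.215, 0.208 and 0.281. The other two were TNC in clone K, at 0.391-fold (log2 -1.35, standard error 0.44, edgeR adjusted p = 0.999), and FN1 in clone P, at 2.56-fold (log2 1.35, standard error 0.54, edgeR adjusted p = 0.832).

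Whether the genes varied together across clones was asked for all 45 pairs, with two-sided permutation tests (100000 resamples) and Benjamini-Hochberg adjustment over the 45 pairs. Pearson r was 0.5 or higher in 7 pairs (15.6%) and -0.5 or lower in 6 pairs (13.3%). Among all pairs of the 11450 genes the shares were 11.4% and 11.2%, so as a set these genes were not far from the background. After adjustment 7 pairs passed 0.05, and without clone N only 1 of them did, FN1 with EFEMP1.

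Fibronectin and fibulin-3 rose and fell together. Over the 17 clones r between FN1 and EFEMP1 was 0.917 (permutation p = 1e-05, the smallest these permutations can give, adjusted p = 0.00045) and Spearman rho was 0.922 (permutation p = 1e-05). Since clones N, P and Q lie apart for both genes, the relation was computed again among the other 14 clones, where r was 0.825 (permutation p = 0.00028) and rho 0.873 (permutation p = 5e-05). Without clones N and P, the 2 farthest from the FN1 median, r was 0.893, and with any single clone left out it stayed between 0.904 and 0.927. Of the 9010 other genes with a median of at least 5 CPM, EFEMP1 had the highest r with FN1. It was barely ahead of MAP3K12 (r = 0.915) and APOD (r = 0.912), so EFEMP1 did not stand out among all genes. The heterogeneous population, at 22520 CPM of FN1 and 16.3 CPM of EFEMP1, lay among the clones.

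**Figure D3:**
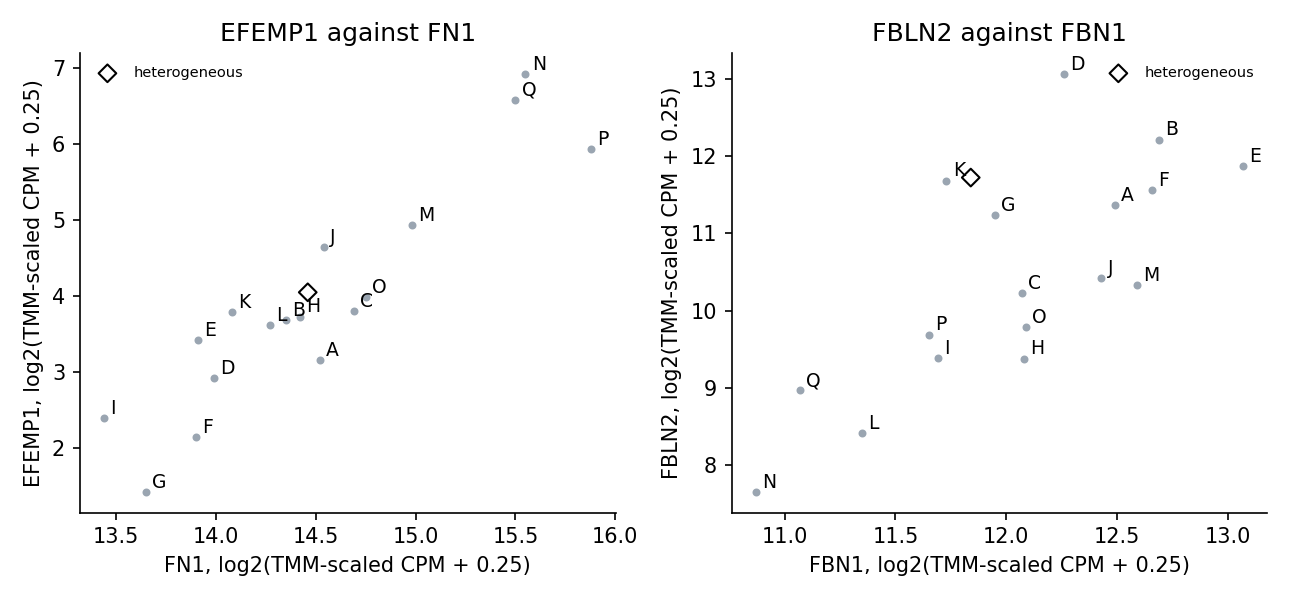
EFEMP1 against FN1 (left) and FBLN2 against FBN1 (right), both as log2(TMM-scaled CPM + 0.25), with letters for the 17 clones and an open diamond for the heterogeneous population. EFEMP1 rises with FN1 (r = 0.917), though clone P, the highest in FN1, has less EFEMP1 than clones N and Q. FBLN2 rises with FBN1 (r = 0.752) with clone N at the lower left.

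FBLN5 and FBLN2 were each related to fibrillin-1. FBN1 correlated with FBLN5 (r = 0.765, permutation p = 0.00039, adjusted p = 0.0081, rho = 0.696, permutation p = 0.00295) and with FBLN2 (r = 0.752, permutation p = 0.00054, adjusted p = 0.0081, rho = 0.762, permutation p = 0.00066). Without clones N and Q, the farthest from the FBN1 median, r was 0.627 and 0.616. FBLN1 and FBLN2 also rose together (r = 0.723, permutation p = 0.00127, adjusted p = 0.0143, rho = 0.625, permutation p = 0.00864, r = 0.569 without clones N and Q). Without clone N alone r was 0.670, 0.670 and 0.632, with adjusted p of 0.0751, 0.0751 and 0.0808, and without clone D r of FBLN1 with FBLN2 was 0.638 (adjusted p = 0.0626). After adjustment FBLN1 did not pass 0.05 with FBN1 (r = 0.515, permutation p = 0.0342, adjusted p = 0.118, rho = 0.436, permutation p = 0.0824, r = 0.124 without clones N and Q) or with FBLN5 (r = 0.293, permutation p = 0.252, adjusted p = 0.492, rho = 0.0784, permutation p = 0.767, r = -0.204 without clones N and Q). Among the 14 clones other than N, P and Q, r was 0.695 for FBN1 with FBLN5, 0.590 for FBN1 with FBLN2 and 0.537 for FBLN1 with FBLN2 (permutation p = 0.00632, 0.0257 and 0.0471).

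Fibulin-1 was inversely related to the fibronectin pair. Over 17 clones FBLN1 had r = -0.662 with FN1 (permutation p = 0.00405, adjusted p = 0.0337, rho = -0.547, permutation p = 0.0254, r = -0.527 without clones N and P) and r = -0.654 with EFEMP1 (permutation p = 0.0045, adjusted p = 0.0337, rho = -0.5, permutation p = 0.0435, r = -0.351 without clones N and Q). Among the other 14 clones the values were -0.300 (permutation p = 0.298) and -0.171 (permutation p = 0.559), so both relations rested on clones N, P and Q. With single clones left out, the adjusted p of FBLN1 with FN1 was above 0.05 without clone F (0.0514), N (0.123) or Q (0.0904), and that of FBLN1 with EFEMP1 without clone F (0.055), N (0.183), P (0.0555) or Q (0.104).

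The relations of elastin depended on which clones were included. Over 17 clones ELN was related inversely to periostin (r = -0.633, permutation p = 0.00574, adjusted p = 0.0369, rho = -0.522, permutation p = 0.0327), and without clones D and K, which had the least POSTN, r was -0.293. The adjusted p was above 0.05 with any one of clones A, B, C, D, G, H, K, N, O and Q left out. In these runs r stayed between -0.609 and -0.642, except without clone D, where it was -0.417 (adjusted p = 0.304). ELN with FN1 had r = 0.00355 (permutation p = 0.989, rho = -0.0196, permutation p = 0.943, r = -0.0678 without clones N and P). With FBLN5, its carrier protein, ELN had r = 0.152 (permutation p = 0.56, rho = 0.176, permutation p = 0.496, r = 0.0904 without clones D and L). With FBLN2 it had r = 0.526 over 17 clones (permutation p = 0.0302, adjusted p = 0.118, rho = 0.5, permutation p = 0.0444, r = 0.180 without clones D and L) and r = 0.785 among the 14 clones other than N, P and Q (permutation p = 0.00086, adjusted p = 0.0193). With FBLN1 it had r = 0.390 over 17 clones (permutation p = 0.122, adjusted p = 0.322, rho = 0.267, permutation p = 0.299, r = 0.0328 without clones D and L) and r = 0.765 among those 14 (permutation p = 0.00172, adjusted p = 0.0258). The split into 14 clones was chosen after the values were seen. It leaves out the clones lowest in FBLN1 and keeps clone D, the highest in ELN, FBLN1 and FBLN2. Among these 14, r without clone D was not computed.

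**Figure D4:**
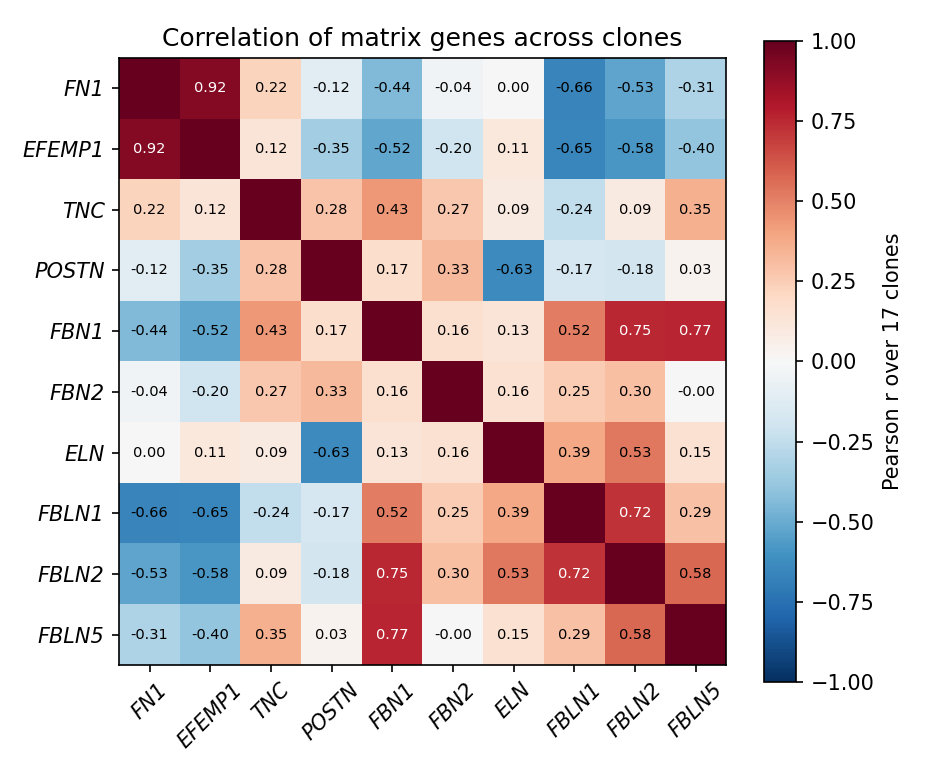
Pearson r of log2(TMM-scaled CPM + 0.25) over 17 clones for each pair of the 10 genes, with red for positive and blue for negative values. The highest r is that of FN1 with EFEMP1 (0.917), followed by FBN1 with FBLN5 (0.765), FBN1 with FBLN2 (0.752) and FBLN1 with FBLN2 (0.723), and the lowest is that of FN1 with FBLN1 (-0.662).

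For each gene the most alike genes across the 17 clones were then looked up, as a description without a test. FBN1 ran closest to GPC4, a glypican (r = 0.912), and LOXL2, a lysyl oxidase-like enzyme that cross-links matrix (r = 0.907). ELN ran closest to ABCA3 (r = 0.883) and LTBP4 (r = 0.871), a latent TGFβ-binding protein of microfibrils that takes part in elastic fibre assembly. TNC ran closest to COL6A1 (r = 0.820) and COL6A2 (r = 0.746), which encode chains of the same collagen. POSTN was most like CALR (r = 0.885) and SND1 (r = 0.881), and FBLN2 most like TSPAN14 (r = 0.932) and SLC1A5 (r = 0.930). FBLN1 was most like CCNY (r = 0.867) and IFT43 (r = 0.841), and FBLN5 most like KDM4A (r = 0.830) and ETV6 (r = 0.820). FBN2 was most like SLC25A11 (r = 0.789) and NFKBIB (r = 0.748). EFEMP1 was most like LIX1L (r = 0.945) and PDGFRL (r = 0.933), both ahead of FN1. High values are common here, since 56.6% of the 9011 genes searched had a most alike gene with r of 0.9 or higher and 4 of the 10 matrix genes did, while at 0.8 or higher the share was 94.3% and 9 of the 10 did.

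The levels were also set against contractile markers, proliferation markers and depth, which were chosen after the values had been seen (30 relations, adjusted together). Of the 10 genes, 5 passed an adjusted p of 0.05 with the contractile sum, 1 with the proliferation sum and 0 with depth. The same numbers had an r of 0.6 or more in size, which 17.1%, 31.5% and 0.795% of the 11450 genes had. Of the 8 smooth muscle and contractile markers listed, 6 were read, with LMOD1 at 0 in every library, and MYOCD had no row. ACTA2 and TAGLN, with clone medians of 2735 and 2385 CPM, made up most of their summed level. The other markers had clone medians of at most 263.5 CPM (SMTN), so the sum mainly follows ACTA2 and TAGLN. This sum ran from 1869 CPM in clone Q and 2071 CPM in clone N to 11023 CPM in clone E. It was inversely related to FN1 (r = -0.799, permutation p = 0.00012, adjusted p = 0.0036, rho = -0.775, permutation p = 0.00044) and EFEMP1 (r = -0.776, permutation p = 0.00028, adjusted p = 0.0042, rho = -0.733, permutation p = 0.00127). It was positively related to FBLN2 (r = 0.732, permutation p = 0.00098, adjusted p = 0.00735, rho = 0.733, permutation p = 0.00125), FBN1 (r = 0.730, permutation p = 0.00087, adjusted p = 0.00735, rho = 0.657, permutation p = 0.00554) and FBLN1 (r = 0.668, permutation p = 0.00343, adjusted p = 0.0206, rho = 0.588, permutation p = 0.0149). Without clones N and Q these 5 values were -0.684, -0.563, 0.604, 0.5 and 0.397. ELN had r = 0.0918 (permutation p = 0.726, rho = 0.184, permutation p = 0.48, r = 0.293 without clones N and Q).

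The summed level of 8 proliferation markers ran from 62.2 CPM in clone M to 1219 CPM in clone O. POSTN was the 1 matrix gene of the 10 past an adjusted p of 0.05 with it (r = 0.631, permutation p = 0.0066, adjusted p = 0.033, rho = 0.716, permutation p = 0.00161, r = 0.602 without clones L and O). With the number of reads on genes 0 of the 10 passed, and the largest r, that of FN1, was 0.398 (permutation p = 0.114, adjusted p = 0.358, rho = 0.380, permutation p = 0.134, r = 0.317 without clones D and M). The part of these markers in the relations among the matrix genes was not tested. In bulk RNA, fewer cells of a type and less RNA per cell cannot be told apart.

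**Figure D5:**
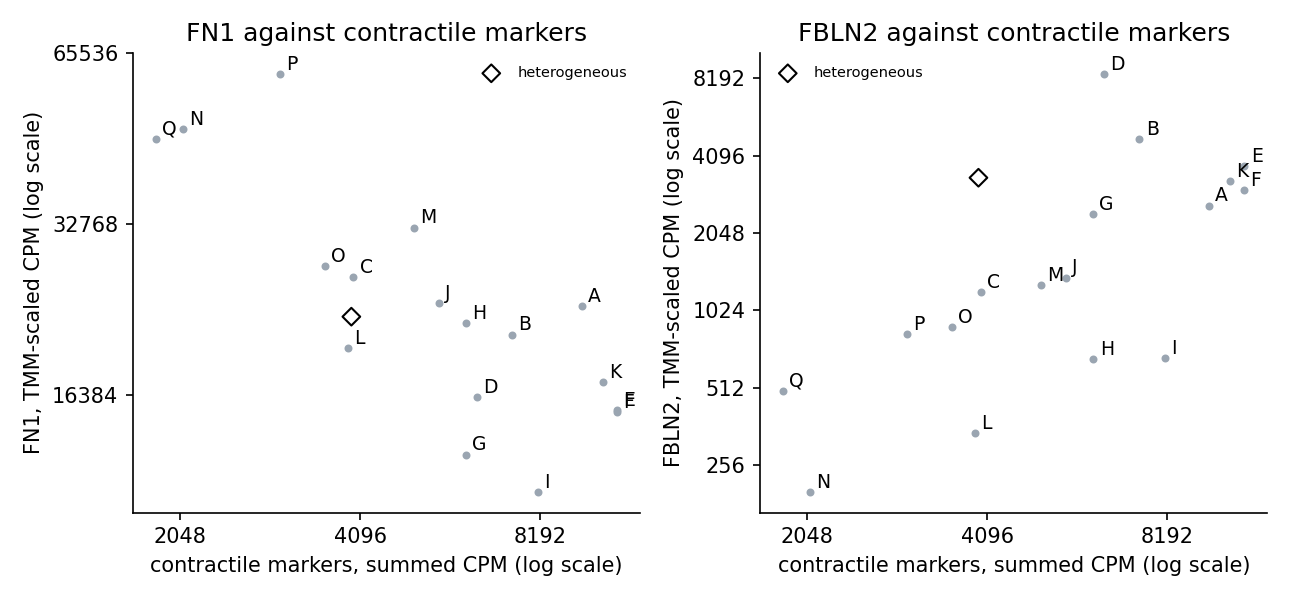
FN1 (left) and FBLN2 (right) against the summed level of the 6 contractile markers read, all in TMM-scaled CPM on log axes, with letters for clones and an open diamond for the heterogeneous population. FN1 falls and FBLN2 rises with the contractile sum (r = -0.799 and 0.732), with clones N and Q at its low end. ACTA2 and TAGLN make up most of this sum.

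The heterogeneous population was compared with the 17 clones to see where an uncloned culture falls in their range. For 8 of the 10 genes it lay within the clones. FBLN1 was above every clone, at 149.8 CPM (2281 reads) against a clone median of 9.96 CPM and a highest clone of 83.5 CPM, and POSTN was below every clone, at 19.1 CPM (291 reads) against a median of 119 CPM and a lowest clone of 21.8 CPM. Among the 11878 genes tested, the heterogeneous library was above every clone in 9.56% and below every clone in 8.6%, so 1 gene of 10 on each side is near the background.

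In edgeR's quasi-likelihood test 0 of the 10 genes passed an adjusted p of 0.05, where 1.22% of all genes did (1.21% higher and 0.00842% lower), and DESeq2 also called 0, against 0.63% of all genes. FBLN1 was 10.8-fold higher (log2 3.43, standard error 1.18, unadjusted p = 0.00923, adjusted p = 0.388 by edgeR), and without clone D, the clone richest in FBLN1, log2 was 3.97 with an edgeR adjusted p of 0.0499. POSTN was at 0.171-fold (log2 -2.55, standard error 1.02, unadjusted p = 0.0217, adjusted p = 0.539 by edgeR) and TNC at 0.431-fold (log2 -1.22, standard error 0.52, unadjusted p = 0.0313, adjusted p = 0.593 by edgeR), with TNC at 5049 CPM above clone K alone. These 3 genes were the ones with an unadjusted p under 0.05, where 7.68% of all genes had one. FN1 (22520 CPM, log2 -0.20, standard error 0.72) and FBN1 (3665 CPM, log2 -0.31, standard error 0.59) exceeded 9 and 6 of the clones, and FBN2 (1.05 CPM, log2 0.37) and FBLN5 (28.4 CPM, log2 -0.0087) exceeded 11 and 10. ELN (1158 CPM, log2 0.35) was above 12 clones and FBLN2 (3364 CPM, log2 0.66) above 14. EFEMP1 (16.3 CPM) was also above 12 clones, while its fitted log2 was -0.72 (-0.33 without clone N).

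Macrophage markers stood out in that library, though unevenly. MMP9 alone was at 690.1 CPM and gave most of their sum. C1QB had only 1 read and LYZ 2, and CTSS, at 90.6 CPM, lay close to its highest clone (83.8 CPM). Of 20 macrophage markers, 19 had a read and all of these were above every clone with TMM scaling, 12 of 16 tested passed edgeR's adjusted p of 0.05, and their summed level was 1022 CPM against 17.3 to 97.3 CPM in the clones, with ITGAM at 0 in every library. The endothelial list summed to 13.1 CPM against 1.69 to 8.49 CPM, of which VWF gave 11.2 CPM, while PECAM1 was at 0.263 CPM (log2 -1.79), 0 of the 3 tested passed, and CDH5 and CLDN5 were at 0 in every library. The proliferation sum was 46.1 CPM, under the lowest clone at 62.2 CPM, though 0 of the 8 genes passed, and the contractile sum was 3962 CPM, within the clones. Only marker mRNA was measured, and the part of any macrophages in the levels of FBLN1 and POSTN was not tested.

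Proteins that work with these 10 were looked at next. Of 15 listed partners of microfibrils and elastic fibres, all of which were tested, 0 passed edgeR's adjusted p of 0.05 in the heterogeneous population (1 without adjustment, 0 by DESeq2) and 0 of 255 tests passed in single clones (16 without adjustment, 3 by DESeq2). Over all genes the edgeR share without adjustment was 7.68% in the heterogeneous population and 4.4% in single clones. The DESeq2 shares were 0.63% and 0.193%. Of the 14 with a CPM above 1 in a clone, 2 had an SD over 1 log2 unit, FBLN7 (SD 1.77) and MFAP2 (SD 1.05), where 6.64% of all such genes did. FBLN7 ran from 0.204 to 37.3 CPM around a median of 0.801 CPM, so its SD includes a counting error that was not computed. The cross-linking enzyme LOX had an SD of 0.43 log2 units around a median of 1036 CPM, EFEMP2 (fibulin-4) 0.37 around 290.0 CPM, and LTBP4 0.73 around 82.2 CPM. LOXL1, the cross-linker bound by fibulin-5, was at 124 CPM in the heterogeneous population against 134 to 555 CPM in the clones (log2 -1.14). It was the 1 partner of the 15 below every clone, and MFAP2 was the 1 above every clone (31.1 CPM, highest clone 30.1 CPM). Over all genes 8.6% were below and 9.56% above every clone.

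Of the 10 listed receptors and cross-linkers of fibronectin and tenascin, 9 were read (VTN was at 0), 0 had an SD over 1 log2 unit, 0 passed edgeR's test in the heterogeneous population (1 without adjustment, 0 by DESeq2) and 0 of 153 tests passed in single clones (9 without adjustment, 1 by DESeq2). ITGA5, the α subunit of the classical fibronectin receptor, ran from 808 to 3380 CPM (SD 0.61 log2 units) and was at 677 CPM in the heterogeneous population, under every clone (log2 -1.33, edgeR adjusted p = 0.666). ITGB1, its β partner, had an SD of 0.28 log2 units around 2150 CPM and was also under every clone (1525 CPM, lowest clone 1678 CPM), whereas ITGAV, the α subunit of other fibronectin and vitronectin receptors, was above every clone (459.4 CPM, highest clone 389.6 CPM). Over all genes 9.56% were above and 8.6% below every clone. The edgeR share without adjustment over all genes was 7.68% in the heterogeneous population and 4.4% in single clones, and the DESeq2 shares were 0.63% and 0.193%. Of the relatives of tenascin-C and periostin, TGFBI, a fasciclin protein, had an SD of 1.5 log2 units (lowest clone 13 CPM, highest 359.9 CPM). TNN had an SD of 1.53, but ran from 0 to 10.9 CPM around a median of 2.17 CPM. Its SD thus includes a counting error that was not computed. TNXB was at 0 in every library and TNR had at most 1 read. Of the 2 relatives tested, 0 passed edgeR's test in the heterogeneous population, with or without adjustment, and DESeq2 also called 0. In single clones 0 of 34 tests passed (1 without adjustment, 0 by DESeq2).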

How the data were processed

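The authors isolated poly-adenylated RNA, sequenced 50-bp single-end reads, aligned them to bosTau7 with STAR (2.3.0e in the submitters' processing notes) and used HTSeq with a RefSeq annotation (release 103) to assign them to genes. The deposited values are therefore raw read counts that the authors had not normalized. HTSeq's 5 closing tallies per file were dropped before any total was formed. Reads outside genes made up 18.78% to 26.81% of a file and ambiguous reads 0.164% to 0.192%. Here counts were scaled with TMM, and edgeR 4.0.16 (filterByExpr, glmQLFit, glmQLFTest, R 4.3.3) was fitted to all genes with Benjamini-Hochberg adjustment over them. A single library is assumed to vary like the rest. DESeq2 1.42.0 was an alternative. Correlations used log2(CPM + 0.25), a pseudocount of 0.25, in Python 3.11.15 with numpy 2.4.6, pandas 2.3.3 and matplotlib 3.10.9. The count tests and the permutation test were tested on simulated data. Genes named are the 10 listed genes, their partners and marker lists, and for each of the 10 genes the most alike of those with a median of at least 5 CPM. The genes and lists were chosen with earlier results of these data known. Clones are separate cultures from one donor. The p-values of the count tests set a difference against the spread between them, while the permutation p-values treat the clones as interchangeable. Clones C and O, the closest pair, were counted as separate clones. Transcript lengths and sequences were not used here, and the planned order of genes by level per length was therefore not computed. Alternatives were the normalization, filter, tool, pseudocount, rank correlation and clones left out. The relations with marker lists, the clones left out one at a time in the correlations and the sets without N, P and Q were added after seeing the data.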

Additional observations from a re-analysis of the deposited data

How the results depend on the processing

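The relation of FN1 with EFEMP1 passed an adjusted p of 0.05 under every alternative run. With DESeq2's Wald test 83 genes were higher and 8 lower in the heterogeneous population (144 and 1 with edgeR), with library totals in place of TMM 2 were lower, and leaving out single clones gave 136 to 154 higher and 1 to 2 lower. Of the 10 matrix genes, 0 to 1 were then called, the 1 being FBLN1 without clone D. FBLN5, near no difference, ran from -0.078 to 0.14 on the log2 scale when single clones were left out. Over all single-clone contrasts DESeq2 called 457 genes (90 with edgeR) and 2 of the tests of matrix genes (0 with edgeR), and without clone N 5 genes were called. The 7 pairs of matrix genes past 0.05 became 11 with library totals, 3 with Spearman rho, 1 without clone N and 4 without clones N, P and Q (FN1 with EFEMP1, plus TNC with FBN1, ELN with FBLN1 and ELN with FBLN2, which are not among the 7), and 1 to 9 when single clones were left out. Without clone O, which is close to clone C, 6 pairs passed. FBN1 with EFEMP1 changed sign without clones N, P and Q (r = 0.148). The cause of these shifts was not tested. No paired analysis was possible because the heterogeneous population has 1 library. The order of genes by level per length and its alternatives were not run. With 1 library per population, low counts limit FBN2 most and FBLN1 in clone N.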
